A study of Arabidopsis thaliana with 4 samples.

Results

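PUB23, PUB24, PUB25 and PUB49 encode plant U-box proteins, and their transcripts were compared between Arabidopsis shoots overexpressing the transcription factor bHLH122 and wild-type shoots. The 4 genes were chosen by name from results of the same comparison, in which PUB23, PUB24 and PUB25 had the lowest differences among PUB genes and PUB49 the highest. Each is represented by 1 of the 22746 tested probe sets, found as the probe set whose only annotated gene is the named one. Their differences between the groups chose them, so these are given below as a description, with no test.

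The overexpressor group held 2 arrays of bHLH122 overexpression plants and the wild-type group 2 arrays of untransformed Col-0, which is also the background of the overexpressors. All plants were stratified for 96 h, kept on MS medium for 1 week and grown in soil for 2 weeks, and whole shoots above the soil were taken without further treatment. The source labels call the overexpressor arrays different lines, while both titles name line 18; the promoter that drove the transgene is not given in the sources used here. Total RNA was hybridised to Affymetrix arrays, and the unit throughout is the deposited RMA signal, an intensity on a linear scale without a fixed unit, or its log2.

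Ubiquitin is passed from an activating enzyme (E1) to a conjugating enzyme (E2) and then, with the help of a ligase (E3), to a target protein, which is often degraded by the proteasome as a result. U-box proteins are one class of E3 ligases, and the U-box is the domain that contacts the E2. PUB22, PUB23 and PUB24 are known as joint negative regulators of the immune response to microbial patterns, PUB22 and PUB23 also act in the drought response, and PUB22 marks the exocyst subunit EXO70B2 for degradation. PUB25 and its close relative PUB26 mark the transcription factor MYB15 in the cold and the immune kinase BIK1. PUB49 joins a U-box to a cyclophilin domain, the fold of peptidyl-prolyl isomerases.

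The arrays were close within groups (r = 0.997 between overexpressor and 0.996 between wild-type arrays over all probe sets) and less so between groups (0.980 to 0.981). The shoot label was checked against marker genes. The 5 measured genes of green tissue had signals from 3790 (SBPASE) to 16315 (RCA), whereas the root markers EXPA7 and EXPA18 and the sporogenesis gene SPL had signals of 9.38 to 24.0, against a lower quartile of 11.0 to 11.6 over all probe sets. Some markers also moved with the groups. Of the 5 green tissue genes, PRK rose by 0.69, SBPASE by 0.44 and RCA by 0.34 on the log2 scale (limma adjusted p = 0.00853, 0.0200 and 0.0491). LHCB4.1 (0.11) and LHCB4.2 (-0.02) did not pass. The summed signal of the 5 was 48984 to 51811 in the overexpressors and 41467 to 42886 in wild type. The 1 measured guard-cell gene, FMA, also called FAMA, rose by 0.67 (limma adjusted p = 0.00698). SBPASE (0.43 to 0.44) and RCA (0.30 to 0.38) lost their calls with any 1 array left out. Their part in the PUB differences was not tested. No probe set with a single annotated gene carried bHLH122 as its name or synonym, and other names of the gene were not searched. Whether the arrays measure the targeted transcript is therefore not known here, and it was not used to check the labels. Fewer cells of a type and less RNA per cell cannot be told apart in RNA of whole shoots.

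PUB24 was the lowest of the 4 relative to wild type. The overexpressor arrays gave signals of 21.3 and 17.5, and wild type gave 50.0 and 56.7. The groups did not overlap. On the log2 scale the means were 4.27 ± 0.20 and 5.74 ± 0.13 (SD, n = 2 each), a difference of -1.46, which puts the overexpressors at 36.3% of wild type. Over the 4 possible pairings of an overexpressor with a wild-type array the log2 difference ran from -1.69 to -1.23. Of all tested probe sets, 176 (0.774%) had a lower difference.

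PUB23 had signals of 28.7 and 38.8 in the overexpressors and 80.3 and 74.5 in wild type. Again both overexpressor arrays lay below both wild-type arrays, but the overexpressor arrays stood further apart from each other than those of the other 3 genes, with log2 signals of 4.84 and 5.28. The log2 means were 5.06 ± 0.31 and 6.27 ± 0.08 (SD, n = 2 each), a difference of -1.21 with pairings from -1.48 to -0.94. The overexpressors were at 43.1% of wild type by this estimate. A lower difference was found for 266 probe sets (1.17%). Leaving out overexpressor replicate 1 gave -0.996 and leaving out overexpressor replicate 2 gave -1.43.

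PUB25 gave 34.6 and 31.8 in the overexpressors and 75.5 and 67.6 in wild type. The groups were apart, and each was tight. The log2 means were 5.05 ± 0.09 and 6.16 ± 0.11 (SD, n = 2 each), a difference of -1.11 with pairings from -1.25 to -0.97, or 46.4% of wild type. Among all probe sets, 335 (1.47%) had a lower difference.

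PUB49 ran the other way. Its signals were 103 and 94.9 in the overexpressors against 71.1 and 58.0 in wild type. Here it was the wild-type arrays that differed more from each other, and the lowest overexpressor array still lay above the highest wild-type array, by 0.42 on the log2 scale. The log2 means were 6.63 ± 0.08 and 6.01 ± 0.21 (SD, n = 2 each), a difference of 0.62 with pairings from 0.42 to 0.83, or 154% of wild type. A higher difference was found for 1435 probe sets (6.31%), so PUB49 was less extreme within the whole table than the other 3 genes.

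**Figure D1:**
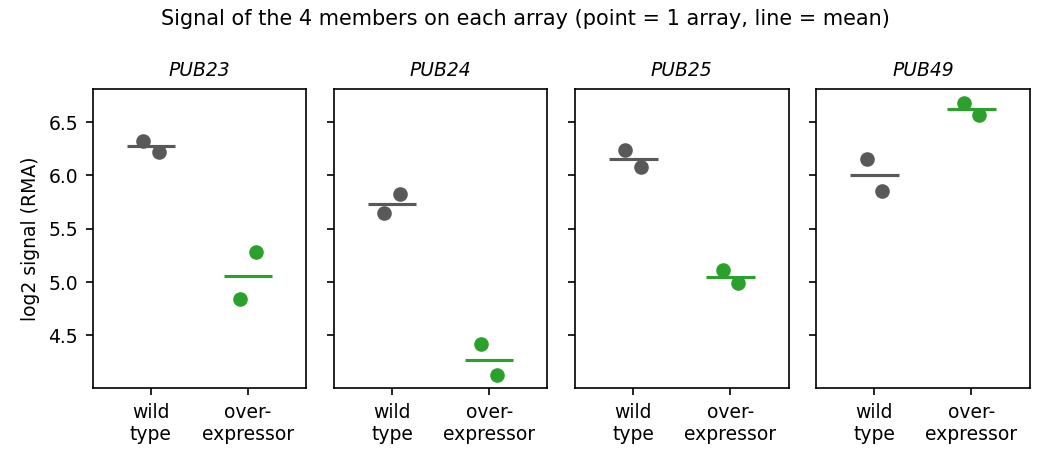
Log2 RMA signal (vertical axis) of PUB23, PUB24, PUB25 and PUB49 in wild type (grey) and bHLH122 overexpressor (green), each point 1 array and each line a group mean. Both overexpressor arrays lie below both wild-type arrays for PUB23, PUB24 and PUB25 and above them for PUB49; heights are not comparable between genes, which have different probes.

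Non-overlapping groups are common in this comparison. They were found for 61.2% of all probe sets, 32.1% with the overexpressors lower and 29.1% with them higher. The 4 genes were chosen from this contrast, and nothing is read from their being 4 of 4. In the wild type the 4 signals lay between the percentiles 53.8 and 61.8 of their arrays, near the middle of the range. In the overexpressors PUB24 lay at percentiles 40.6 and 37.1, PUB23 at 44.8 and 49.5 and PUB25 at 47.6 and 46.5, all above the lower quartile, while PUB49 lay at 65.5 and 64.4.

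PUB23, PUB24 and PUB25 were alike in direction and less so in size. The log2 change of PUB24 was 0.25 below that of PUB23 and 0.36 below that of PUB25, and the ranges of the pairings overlapped between PUB24 and each of the other two. PUB25 and PUB23 were 0.11 apart. The SDs of the 3 genes within a group ran from 0.08 to 0.31. They do not measure the spread of a gap between log2 changes, and the gaps were not tested. Measured over the 4 arrays as deviations from each gene's own mean, the 3 genes lay at a root mean square distance of 0.155 (PUB23), 0.162 (PUB24) and 0.101 (PUB25) log2 units from their common profile.

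The nuclear genes whose pattern over the 4 arrays came closest to that common profile were AT2G20870, AT2G30930, AT2G05540, AT4G34150 and AT5G20740, at root mean square distances of 0.0296 to 0.0448 log2 units. Their log2 differences lay between -1.30 (AT2G20870) and -1.20 (AT2G05540). AT2G30930, for example, had signals of 388 and 374 in the overexpressors and 904 and 874 in wild type. Nearest to PUB49 were AT2G13440 (0.0095), AT5G12400 (0.0193) and AT2G26690 (0.0195), with log2 differences of 0.61, 0.61 and 0.62; like PUB49, each had a lower signal on wild-type replicate 2 than on wild-type replicate 1. With 4 arrays in 2 groups, such likeness mostly reflects the size of the group difference.

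The other U-box genes give the setting for these values. The gene table used for names holds 22 genes with a PUB number as symbol, and 9 of them have a named probe set, the 4 members and PUB15, PUB19, PUB22, PUB26 and PUB43. Of these other 5 genes, 3 fell and none rose in limma at an adjusted p under 0.05, against 11.8% of all probe sets that fell, 12.2% that rose and 24.0% that passed in either direction. Their median log2 difference was -0.41, and that over all probe sets was -0.02. With ordinary statistics, which share no variance between probe sets, none of the 3 passed (adjusted p = 0.118 to 0.170), and only 5 of all probe sets did. These genes were left over when the most extreme PUB genes had been taken as members.

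PUB19, known to act with PUB18 as a negative regulator of the response to abscisic acid and drought, had signals of 48.6 and 46.2 in the overexpressors and 69.1 and 82.2 in wild type. Its log2 signal fell by 0.67 (SE 0.12, limma adjusted p = 0.0112) and kept its call with any 1 array left out. PUB22 had signals of 12.5 and 13.1 against 17.1 and 18.7, the overexpressor values being close to the lower quartile of the arrays. PUB22 fell by 0.48 (SE 0.10, limma adjusted p = 0.0192), but did not pass without overexpressor replicate 1 (-0.45), overexpressor replicate 2 (-0.51) or wild-type replicate 2 (-0.42).

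PUB26 had signals of 59.5 and 56.5 against 75.8 and 78.3, with the groups clearly apart. It fell by 0.41 (SE 0.10, limma adjusted p = 0.0270), and leaving out any 1 array ended the call, with log2 differences from -0.45 to -0.37. PUB43 leaned the way of PUB49, with 44.0 and 47.3 against 40.6 and 30.3. Its difference of 0.38 (SE 0.15) did not pass (limma adjusted p = 0.132), although it did without wild-type replicate 1 (0.59, limma adjusted p = 0.0397). Without wild-type replicate 2 it was 0.17 (limma adjusted p = 0.432). PUB15 was dim on all arrays, from 9.39 to 10.1, with overlapping groups and a difference of -0.02.

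**Figure D2:**
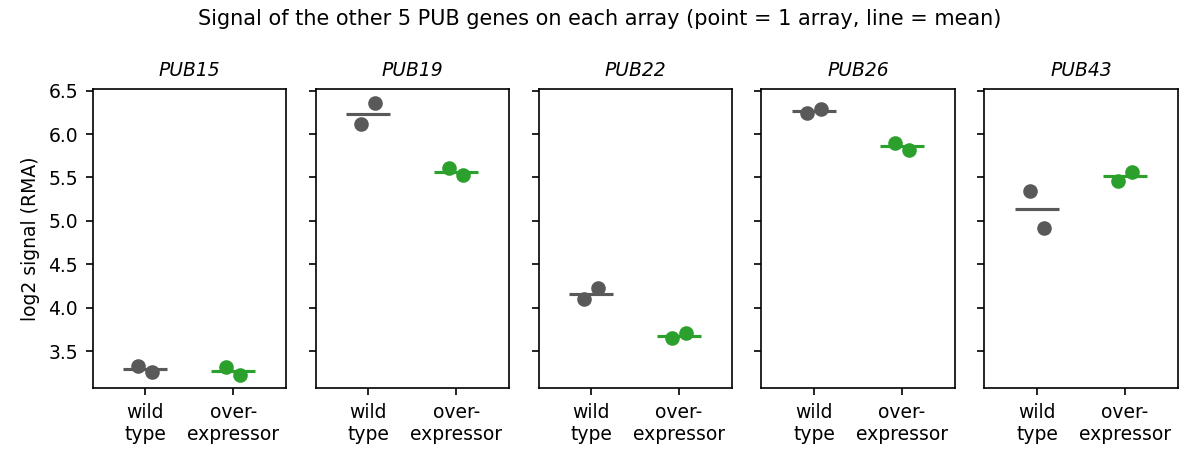
Log2 RMA signal (vertical axis) of PUB15, PUB19, PUB22, PUB26 and PUB43 in wild type (grey) and overexpressor (green), each point 1 array and each line a group mean. The groups are apart for PUB19, PUB22 and PUB26, which were lower in the overexpressors, and for PUB43, which did not pass the test; they overlap for PUB15.

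Set side by side, PUB23, PUB24 and PUB25 had a median log2 difference of -1.21 and the other 6 PUB genes, PUB49 included, of -0.22. Among the other 6 are PUB19, PUB22 and PUB26, which are also linked to stress responses. These were lower in the overexpressors as well, at -0.67, -0.48 and -0.41. The contrast of PUB23, PUB24 and PUB25 with the other 6 was built into the choice of members and was not tested. The same choice fixed the direction of the gaps between close relatives, which are given as values only. PUB23 was 0.73 lower in log2 change than PUB22, its partner in the drought and immune responses, and PUB25 was 0.70 lower than PUB26, its partner in the cold response. In both pairs the 2 genes lay on the same side of 0. For the dim PUB22 a signal near the lower end of the range can understate a change.

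**Figure D3:**
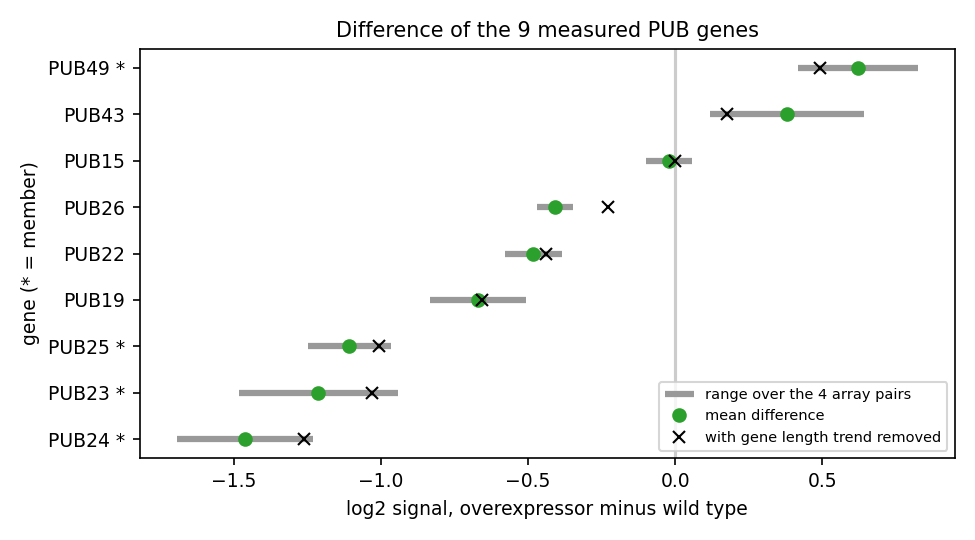
Log2 signal difference, overexpressor minus wild type (horizontal axis), of the 9 measured PUB genes, members starred: mean difference (green), range over the 4 array pairings (grey bar) and value after removal of the gene length trend (cross). PUB24, PUB23 and PUB25 lie between -1.46 and -1.11, the next lowest gene, PUB19, at -0.67, and PUB49 at 0.62.

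Gene length moved with the difference between groups across the nuclear genome, and the PUB genes differ in length. PUB24 spans 1631 bp, PUB23 1705 bp, PUB25 2046 bp and PUB49 3073 bp, introns included. Among nuclear probe sets of genes over 1000 and up to 2000 bp, where PUB22, PUB23, PUB24 and PUB26 lie, the median log2 difference was -0.10, with 17.9% of 4349 lower and 3.43% higher in limma. Between 2000 and 3000 bp, the bin of PUB25, PUB15 and PUB19, the shares were 10.3% and 9.72% of 3746. Between 3000 and 4000 bp, where PUB49 and PUB43 lie, they were 4.59% and 18.03% of 1919, with a median of 0.08. Calls in the bin of PUB23 and PUB24 thus leaned to lower values, those in the bin of PUB25 were nearly balanced, and those in the bin of PUB49 leaned to higher values.

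The 3 low members, chosen for their low differences, stood well below the median of their bins, and nothing is read from that position. A difference of -1 or lower was found for 2.37% of nuclear probe sets in the bin of PUB23 and PUB24 and for 0.801% in the bin of PUB25. PUB49 lay inside the central range of its bin, whose 5th and 95th percentiles were -0.39 and 0.77. With the length trend removed from the 13367 nuclear probe sets, the log2 differences were -1.26 for PUB24, -1.03 for PUB23, -1.01 for PUB25 and 0.49 for PUB49. Under that setting PUB19 (-0.66, limma adjusted p = 0.0110) and PUB22 (-0.44, limma adjusted p = 0.0350) kept their calls, and PUB26 (-0.23, limma adjusted p = 0.176) lost its own. That made 2 of the other 5 PUB genes, where 15.7% of nuclear probe sets passed, 7.61% lower and 8.11% higher. A true relation between length and expression would be removed by this step too.

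**Figure D4:**
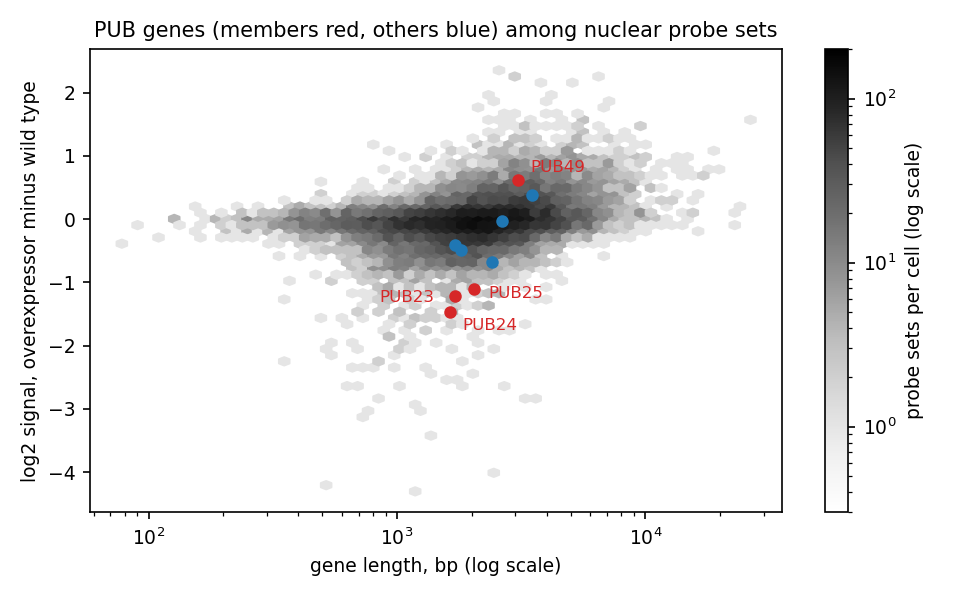
Log2 signal difference, overexpressor minus wild type (vertical axis), against gene length in bp (horizontal axis, log scale) for the 13367 nuclear probe sets with 1 gene, shaded by number per cell, with the members in red and the other PUB genes in blue. PUB23, PUB24 and PUB25 lie in the lower tail of the cloud for their length, with some genes lower still, and PUB49 lies in its upper part.

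Other technical measures were looked at beside these values. The 3′ minus 5′ log2 signal of the GAPDH controls was 0.41 and 0.43 in the overexpressors and 0.49 and 0.45 in wild type, and that of the actin controls 3.17 and 2.87 against 3.03 and 3.16. On all 24 probe sets for spiked-in poly-A control RNA the overexpressor mean was the lower one, by a median of 0.59 (overexpressor minus wild type -0.59). The part of these controls and of gene length in the PUB differences was not tested, beyond the values with the trend removed.

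The remaining ubiquitin genes with a named probe set were fewer than the pathway holds. None of the planned lists for ubiquitin itself, the proteasome and the EXO70 family has a named probe set, so these genes are not analysed here. Of 13 E2 genes, 3 fell and none rose, close to the share of 24.0% called over all probe sets (11.8% lower), and the median log2 difference was -0.01. PEX4, the peroxisomal E2 also called UBC21, had signals of 598 and 539 in the overexpressors and 832 and 831 in wild type and fell by 0.55 (SE 0.10, limma adjusted p = 0.0130). UBC16 fell by 0.46 (SE 0.10) and UBC28 by 0.38 (SE 0.10), while UBC22 (-0.23) did not pass.

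Each of these E2 calls depended on single arrays. UBC16 and UBC28 lost theirs with any 1 array left out, at -0.51 to -0.42 and -0.46 to -0.30. PEX4 lost its call without overexpressor replicate 2, wild-type replicate 1 or wild-type replicate 2, with leave-one-out values from -0.62 to -0.47. With the length trend removed 0 of the 13 passed in limma (PEX4 -0.37, adjusted p = 0.0536).

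RING proteins form the largest class of E3 ligases, and members of the ATL family are known as fast elicitor-responsive genes. Of 4 measured genes with an ATL number as name or synonym, 1 fell and 3 did not pass. That is near the 24.0% of all probe sets that passed in either direction, and 11.8% fell. In the length bin up to 1000 bp, where ATL8 lies at 989 bp, 14.4% of nuclear probe sets fell. ATL8 had signals of 39.7 and 37.1 against 65.5 and 63.7 and fell by 0.75 (SE 0.10, limma adjusted p = 0.00432). ATL63 (-0.31), ATL5 (0.31) and ATL4H (0.09) did not pass. ATL8 did not pass once the length trend was removed (-0.36, limma adjusted p = 0.0582), where ATL5 did (0.59, limma adjusted p = 0.0286).

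Of 7 further RING genes, taken by name after the annotation had been seen, 3 fell and none rose, against 11.8% of all probe sets and 17.9% of nuclear genes of 1000 to 2000 bp that fell, and the median log2 difference was -0.28. RING1 had signals of 376 and 397 in the overexpressors and 628 and 630 in wild type, and fell by 0.70 (SE 0.10, limma adjusted p = 0.00498). LUL2 fell by 0.53 (SE 0.14) and LUL1 by 0.39 (SE 0.11), whereas BRH1, a brassinosteroid-responsive RING gene, had -0.28 and did not pass. LUL1 lost its call with any 1 array left out (-0.46 to -0.32), and LUL2 without overexpressor replicate 1, overexpressor replicate 2 or wild-type replicate 2 (-0.71 to -0.34 over the 4 arrays). With the length trend removed RING1 alone of the 7 kept its call (-0.42, limma adjusted p = 0.0366). These are short genes, from 1179 to 1522 bp for the 4 named.

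SKP1-like proteins link F-box proteins to cullins in a different type of ligase. Their list, too, was made after the annotation had been seen. Of 4 genes, 1 fell and none rose, near the 24.0% of all probe sets that passed in either direction, and 11.8% fell. All 4 lie in the length bin up to 1000 bp, where 14.4% of nuclear probe sets fell and 0.695% rose. SK18 fell by 0.43 (SE 0.10), and SK19 (0.22), SK15 (-0.08) and SK16 (-0.03) did not pass, all 3 with signals under 10. SK18 lost its call with any 1 array left out (-0.47 to -0.39). With the length trend removed its value turned to 0.16.

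The ubiquitin-specific proteases (UBP) take ubiquitin off proteins. They were listed after the annotation had been seen. Of 12 genes, 3 rose, none fell and 9 did not pass, against 12.2% of all probe sets that rose and 24.0% that passed, and the median log2 difference was 0.31. Among nuclear genes of 4000 to 6000 bp, where UBP15 and UBP23 lie, 24.5% rose, and among those over 6000 bp, the bin of UBP26, 41.0% rose. UBP15 had signals of 93.6 and 81.4 in the overexpressors and 37.5 and 37.3 in wild type and rose by 1.22 (SE 0.11, limma adjusted p = 0.00152). UBP26, which acts on ubiquitinated histone H2B, rose by 1.02 (SE 0.10), from 17.6 and 17.6 to 36.9 and 34.7. UBP23 rose by 0.85 (SE 0.11), and UBP24 (0.38) did not pass. UBP15, UBP26 and UBP23 span 4249 to 6823 bp, and with the length trend removed each kept its call, at 0.83, 0.79 and 0.55.

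**Figure D5:**
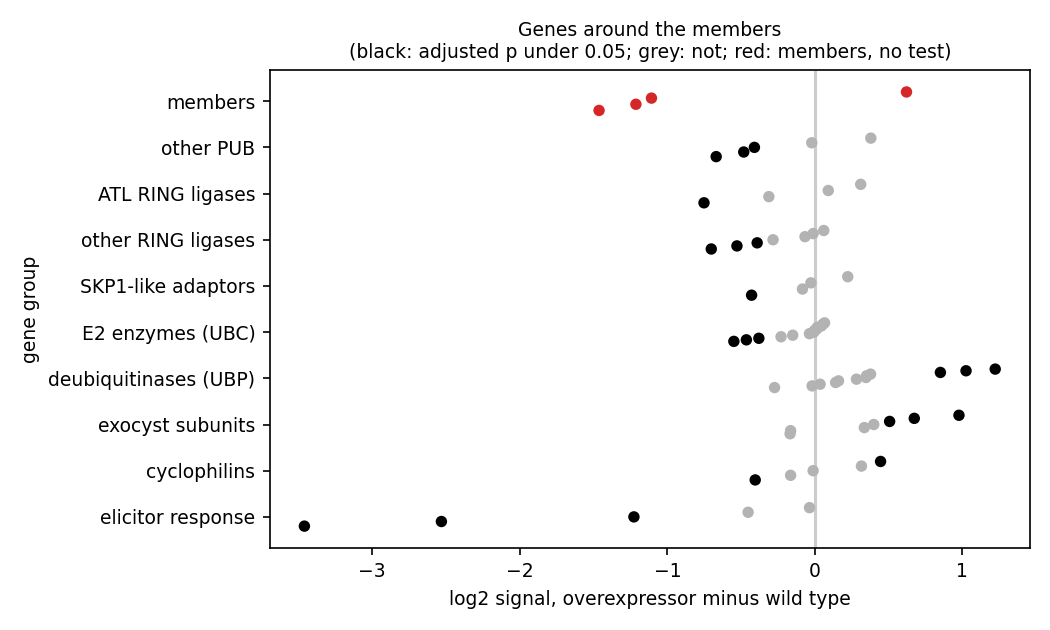
Log2 signal difference, overexpressor minus wild type (horizontal axis), of the members (red, no test) and of the other gene groups (vertical axis), each point 1 probe set, black where limma's adjusted p was under 0.05 and grey otherwise. Calls among the other PUB genes, the RING genes and the E2 genes lie below 0, and those among UBP and exocyst genes lie above 0.

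The exocyst, which tethers secretory vesicles to the plasma membrane and contains the EXO70 subunits, was taken as the group nearest to the known PUB22 target. This list was also added after the annotation had been seen. Of 7 other subunit genes, 3 rose, none fell and 4 did not pass, against 12.2% of all probe sets and 41.0% of nuclear genes over 6000 bp that rose. SEC6 had signals of 155 and 118 against 66.5 and 70.8 and rose by 0.98 (SE 0.15, limma adjusted p = 0.00690). SEC5A rose by 0.67 (SE 0.10) and SEC15A by 0.51 (SE 0.10), and SEC5B (0.34) did not pass. SEC15A lost its call without overexpressor replicate 1, wild-type replicate 1 or wild-type replicate 2, with values from 0.44 to 0.57 over the 4 arrays. SEC6 and SEC5A are 7561 and 6629 bp long. With the length trend removed they no longer passed (0.45 and 0.17), SEC15A did (0.42), and SEC10 (-0.61) and EXO84B (-0.46) passed on the lower side.

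PUB49 was also set beside the cyclophilins, whose fold it shares. Of 5 probe sets for 4 genes, 1 rose, 1 fell and 3 did not pass, against 12.2% of all probe sets that rose and 11.8% that fell. AT4G33060, also called CYP57, had signals of 96.9 and 113 against 74.6 and 79.2 and rose by 0.45 (SE 0.11, limma adjusted p = 0.0365). SQN, the cyclophilin 40 gene, fell by 0.40 (SE 0.10, limma adjusted p = 0.0358) on one probe set, whereas its other, dimmer probe set had -0.16 and did not pass. CYP71 (0.32) and CYP59 (-0.01) did not pass. AT4G33060 lost its call without overexpressor replicate 2, wild-type replicate 1 or wild-type replicate 2 (0.33 to 0.56), and SQN with any 1 array left out (-0.48 to -0.33). With the length trend removed SQN kept its call (-0.48) and AT4G33060 did not (0.20).

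Of the known targets and partners of PUB22 to PUB25, BIK1 was the only one with a named probe set. Its signals were 104 and 95.3 in the overexpressors and 116 and 159 in wild type. The groups were apart, but the wild-type arrays differed from each other, and the log2 difference of -0.45 (SE 0.16) did not pass (limma adjusted p = 0.0967). Without wild-type replicate 1 it passed at -0.68 (limma adjusted p = 0.0295), and without wild-type replicate 2 it was -0.22 (limma adjusted p = 0.308).

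The list of genes that respond to microbial elicitors, the condition in which PUB22, PUB23 and PUB24 are known to be induced, had 5 measured genes, of which 3 fell and none rose, against 11.8% of all probe sets that fell and 24.0% that passed. WRKY22, a transcription factor of the flagellin response, had signals of 15.6 and 14.4 in the overexpressors and 29.2 and 41.9 in wild type. It fell by 1.23 (SE 0.18, limma adjusted p = 0.00595), close in size to PUB23, and kept its call with the length trend removed (-1.17). The calmodulin-like gene CML38 fell by 3.46 (SE 0.11). WRKY53 fell by 2.53 (SE 0.10), from 104 and 96.8 to 18.04 and 16.7. BIK1, which is on this list as well, and EFR, the receptor for bacterial elongation factor Tu (-0.04), did not pass. The falls of CML38 and WRKY53 were known when the list was made, so their count is no independent evidence of its direction.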

How the data were processed

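The deposited values are signal intensities, 1 for each array and probe set, which the authors made with RMA, per the submitters' processing notes. They are linear, and how RMA values became linear is not given in the sources used here, nor is a version. Of 22810 probe sets, 64 controls were left out. Genes were named from the platform annotation (13513 tested probe sets with 1 gene, 503 with several, 8730 with none), with symbols and lengths from the TAIR10.1 table through Entrez identifiers (13436 matched).

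The log2 values of the 4 arrays were fitted by limma 3.58.1 (R 4.3.3; lmFit and eBayes with a group term, two-sided; p adjusted by Benjamini-Hochberg over 22746 probe sets, threshold 0.05). The fit was also run on simulated data with variances from its own model and no length trend. That run checks the code and not the calls made here. Separate plant cultures are not stated for the wild-type arrays; p-values then cover the spread between samples, possibly only technical, and precision is limited by having 4 arrays. Replicate numbers were not taken as pairs, since deviations of same-numbered arrays correlated at -0.0410. The length trend was removed per array by lowess (span 0.5, 4 bins of mean signal).

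Members and gene lists were chosen with earlier results of these data known. The rule for named genes took the members, all other PUB genes, all genes of lists with up to 6 measured and otherwise the 4 with the smallest p, and the 5 and 3 nearest patterns; EXO84B and SEC10 were added after their values were seen. Detection calls were not used.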

Additional observations from a re-analysis of the deposited data

How the results depend on the processing

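The log2 differences of the members kept their sign under all alternatives run, from -1.60 to -0.97 for PUB24, -1.43 to -0.916 for PUB23, -1.19 to -0.831 for PUB25 and 0.475 to 0.767 for PUB49; the values nearest 0 for the low members came from adding 16 to the signal, which shrinks low values by construction. The number of probe sets passing limma, 5460, moved to 5 with ordinary statistics without moderation, 3612 with a replicate block, 3318 to 3586 with 1 array left out, 2101 with the length trend removed and 2650 with nuclear probe sets of 1 gene. Fewer samples or unshared variance do this by construction. Fewer probe sets alone need not: 5940 passed without the lowest quartile of mean signal and 5605 without probe sets below its median. For the replicate block, the length trend and the nuclear probe sets the cause was not tested. Of the other 5 PUB genes 3 passed, against 0 with ordinary statistics, 2 with the replicate block and 1 to 3 with 1 array left out, where the 3 without wild-type replicate 1 were PUB19, PUB22 and, on the higher side, PUB43; the replicate numbers share only a number. With median centring 2575 probe sets were higher and 3107 lower. Of 756 values for other named probe sets, a call was lost in 117 and gained in 13, the sign turned in 20 (genes with no call, and SK18), and 606 stayed as they were in sign and call. With 1 array left out these ran from -0.0628 to 0.0211 for PUB15, -0.112 to 0.0870 for SPL, -0.223 to 0.151 for EFR, -0.133 to 0.110 for CYP59, -0.277 to 0.249 for EXPA18, -0.262 to 0.0867 for EXPA7, -0.0831 to 0.0476 for LHCB4.2 and -0.145 to 0.0910 for SK16. After quantile normalization PUB15 was 0.00459 and SPL 0.0101, and with the length trend removed SPL was 0.0105, LHCB4.2 0.223, EXPA18 0.0413, SK18 0.159 and SK16 0.0126; the cause was not tested. No detection calls were used, so the distance from background is unknown; PUB15 and PUB22, the dimmest PUB genes, are limited most.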
